A study of Mus musculus with 9 samples.

Results

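Transcripts of 10 genes for secreted inflammatory mediators and the enzyme that starts inducible prostaglandin synthesis were followed across 9 cultures of primary neonatal mouse ventricular myocytes. The genes are the gp130 cytokines Il6, Lif and Il11, the growth factor Csf1, the CC chemokines Ccl2 and Ccl7, the CXC chemokines Cxcl1, Cxcl2 and Cxcl12, and Ptgs2, which encodes cyclooxygenase-2. They were picked by gene name from the deposited count table and are 10 of its 55401 genes. All 10 had counts in every library, the lowest being 5, and all 10 passed the filter on low counts together with the rest of the 16762 genes tested.

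The cells came from wild-type C57BL/6J mice that were 1 day old, and were grown in DMEM with 10% serum. The 3 control cultures stayed at normal oxygen in this complete medium. The 3 hypoxia cultures were moved to DMEM lacking both glucose and serum and kept for 6 h in a sealed chamber with an oxygen-absorbing pack. The 3 hypoxia + rSRGN cultures had the same medium and the same 6 h of low oxygen with recombinant serglycin, a proteoglycan of secretory granules, added to the medium. Low oxygen, loss of glucose and loss of serum came together, so wherever control is the reference their effects cannot be told apart. The dose of rSRGN is not given in the labels, which also do not say whether the 3 replicates of a group came from separate isolations, so the p-values measure the spread between these samples, which may be technical. Poly(A)-selected RNA was sequenced, and the libraries held 21669017 to 22781557 assigned fragments in control, 16583985 to 18148474 in hypoxia and 16640239 to 20826701 in hypoxia + rSRGN.

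IL-6, LIF and IL-11 each bind a receptor of their own and then signal through the shared subunit gp130 (Il6st), mainly to STAT3. CSF1 keeps macrophages alive through its receptor CSF1R, CCL2 and CCL7 draw monocytes through CCR2, CXCL1 and CXCL2 draw neutrophils through CXCR2, and CXCL12 acts on CXCR4 and ACKR3. Cyclooxygenase-2 turns arachidonic acid into prostaglandin H2, from which the other prostanoids are made. In injured heart muscle these genes are known to be induced in fibroblasts, endothelial cells, leukocytes and myocytes, many of them through NF-kappaB and AP-1, and several of their mRNAs are known to be short-lived through AU-rich elements.

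In hypoxia, 8 of the 10 transcripts were higher than in control and 0 were lower, where a call required 1.5-fold or more and an adjusted p under 0.05 (26.4% of all tested genes were called higher and 25.1% lower). Ptgs2 had the largest log2 fold change of the 10, at 3.05, followed by Il6 at 2.49 and Cxcl1 at 2.17. The median over the 10 was 1.69, against 0.05 over all genes tested. At an unadjusted p under 0.05 in edgeR with the same fold limit (27.1% of all genes higher and 25.4% lower), and in DESeq2 (25.4% and 25.6%), the counts were again 8 higher and 0 lower. With libraries scaled to fibroblast markers, whose summed level was also higher in hypoxia, 6 were called higher and 0 lower (7.33% and 58.7% of all genes), and Csf1 and Ccl2 were no longer called. Addition of rSRGN to hypoxia raised 1 of the 10, Ptgs2, by a further log2 fold change of 1.05, and lowered 0 (2.27% of all genes were called higher and 0.859% lower). These counts were the same with an unadjusted p in edgeR, where 3.25% of all genes were higher and 2.12% lower, and in DESeq2, where 2.62% were higher and 0.597% lower. The median over the 10 for this comparison was 0.25, against -0.03 over all genes.

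**Figure D1:**
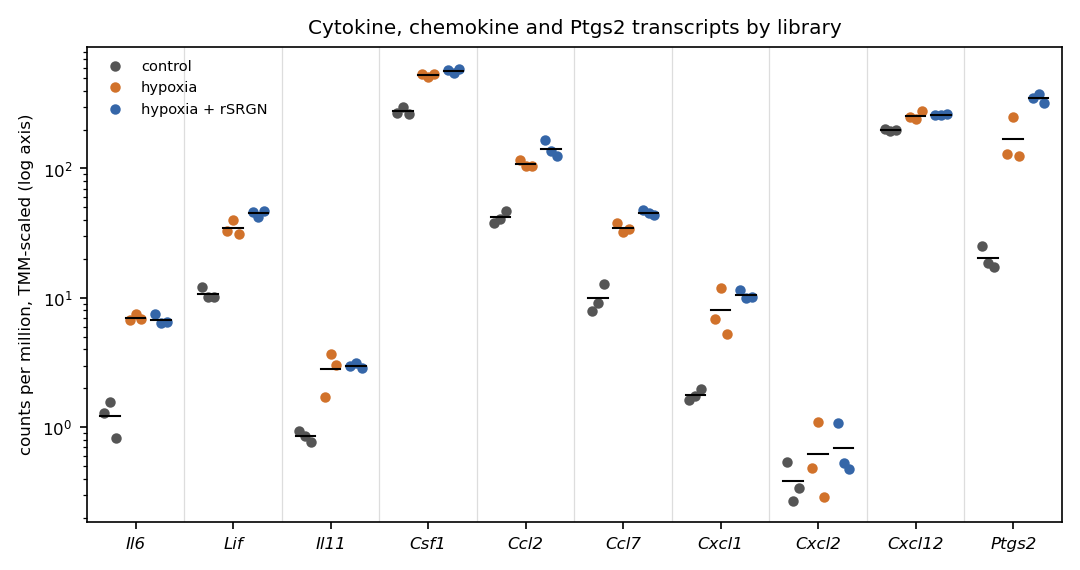
CPM (fragment counts scaled to library size by TMM, log axis) of the 10 transcripts in each of the 9 libraries, with 1 point per library and a bar at the group mean of 3 libraries. Ptgs2 lay at 17.2 to 25.1 in control, 126 to 249.7 in hypoxia and 319.7 to 379 in hypoxia + rSRGN, while the 3 groups of Cxcl2 overlapped below 1.10.

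The region around the transcription start was looked at because NF-kappaB is a known regulator of this group. Sequences were taken from the RefSeq promoter table (build GRCm38.p6), which gives 250 bases before and 50 after each start. It held 9 promoters for 8 of the 10 genes (all but Ccl2 and Ccl7), with 2 for Il11. A kappaB motif was present on either strand in 5 of the 9, against 8.46% of all 32851 promoters in the table. The windows that carry it are shown 5′ to 3′ on the gene's strand, with the motif in capitals and 25 bases on each side.
Il6: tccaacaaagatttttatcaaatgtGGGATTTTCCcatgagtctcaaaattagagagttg
Lif: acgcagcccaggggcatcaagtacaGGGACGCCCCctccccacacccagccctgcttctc
Csf1: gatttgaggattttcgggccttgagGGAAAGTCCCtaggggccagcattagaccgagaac
Cxcl1: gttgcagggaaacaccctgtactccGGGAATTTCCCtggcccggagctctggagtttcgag
Cxcl2: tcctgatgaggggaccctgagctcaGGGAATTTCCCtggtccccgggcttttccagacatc
The Il6 window is at chr5:30013045-30013104 and the Lif window at chr11:4257365-4257424, both on the plus strand. The Csf1 window, on the minus strand, is at chr3:107760589-107760648. Cxcl1 (chr5:90891149-90891209) and Cxcl2 (chr5:90903777-90903837) lie side by side on the plus strand and carry the same 11 capital letters, in which a match on each strand overlaps. The motif ended 35 bases before the start in Il6, 61 in Cxcl1, 87 in Cxcl2, 145 in Csf1 and 169 in Lif.

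The AP-1 motif TGANTCA, searched on both strands, was found in 3 of the 9 promoters (Il6, Lif and the second start of Il11), against 7.81% of all promoters, and the C/EBP motif TTGCNNAAT in that of Il6 alone, against 2.4%. No promoter of the group held the cyclic AMP response element TGACGTCA (1.79% of all) or the TATA box TATAAA on the gene's strand (8.32% of all). The core letters of the hypoxia response element are common: ACGTG was present in 2 of the 9 and in 19.62% of all promoters, and GCGTG in 3 of the 9 and in 32.39% of all. Ptgs2, the gene with the largest change, held no kappaB, AP-1 or C/EBP match in this window. It also held ACGTG on both strands, at bases 17 to 22 counted from the start. Its GCGTG, 98 to 94 bases before the start, is in capitals in the 60 bases at chr1:150099905-150099964 (plus strand).
Ptgs2: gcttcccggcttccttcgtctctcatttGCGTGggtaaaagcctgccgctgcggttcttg
The windows of Cxcl12 and of the first start of Il11 held none of the 7 motifs. These matches describe letters only, and nothing was measured on binding in these cultures.

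**Figure D2:**
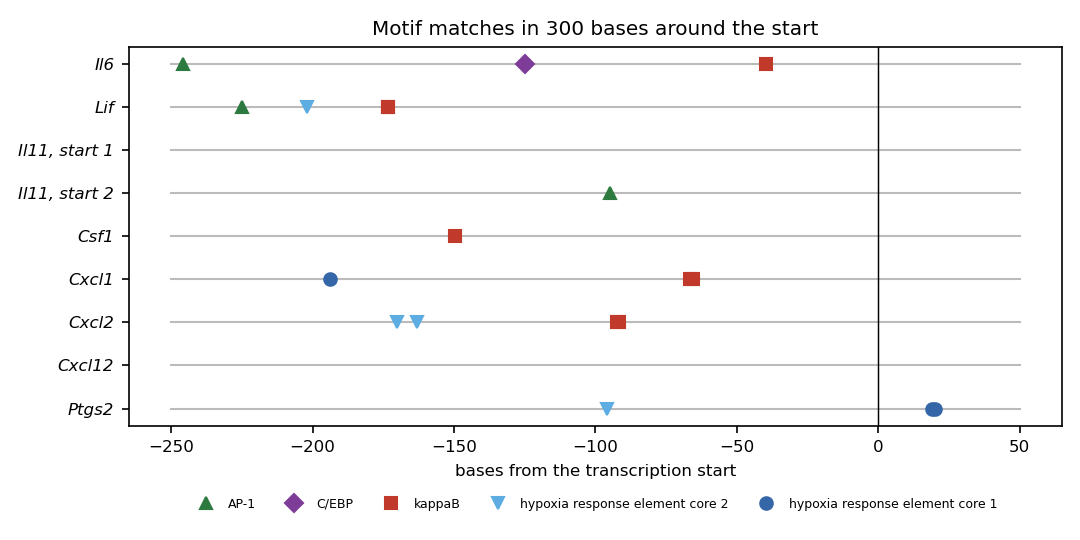
Positions of motif matches from 250 bases before to 50 bases after the transcription start (line at 0) in the 9 promoters of 8 genes, with 1 row per promoter and 1 symbol per match. The kappaB squares of Il6, Lif, Csf1, Cxcl1 and Cxcl2 lie between 178 and 35 bases before the start.

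In 5 of the 10 genes the 3′ untranslated region held many AU-rich pentamers for its length. The pentamer ATTTA, the core of AU-rich elements, was counted in the longest 3′ untranslated region of each gene in the basic annotation of GENCODE release M21, where the median over 20996 protein-coding genes was 1. Ptgs2 had 14 copies in 2445 bases, Cxcl2 11 in 1494, Il11 10 in 1194, Il6 10 in 1668 and Cxcl1 7 in 592. Among genes whose region had a length within 1.2-fold of theirs, 1.77%, 0.78%, 0.56%, 2.75% and 0.52% had as many. The other 5 genes stood less far from genes of like length: Lif had 7 copies (39.81% had as many), Csf1 4 (50.06%), Ccl7 2 (19.78%) and Ccl2 1 (35.51%). Cxcl12 had 4 copies in 5188 bases, fewer than the median of 9 for its length. The longer element TTATTTATT was present in Il11 5 times, in Cxcl2 4 times, in Lif and Cxcl1 2 times each and in Ptgs2 1 time, and in 7.59% of all genes.

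Il6 (ENSMUSG00000025746.11, chr5:30013114-30019981, plus strand, mm10), the pleiotropic cytokine of the acute phase response, was scarce in control. Its level was 1.30, 1.58 and 0.821 CPM (fragment counts scaled to library size) in the 3 control libraries, 6.71, 7.45 and 6.89 in hypoxia and 7.51, 6.41 and 6.50 in hypoxia + rSRGN. Both hypoxic groups lay entirely above control and overlapped each other. Such placement was common: among all genes tested, 37.7% lay entirely above control in hypoxia and 35.3% entirely below. With rSRGN, 36.6% lay entirely above control and 36.6% entirely below. Il6 rose 5.63-fold in hypoxia (log2 fold change 2.49, SE 0.23, adjusted p = 1.64e-09). With rSRGN the log2 fold change against hypoxia was -0.05, with a 95% confidence interval from -0.44 to 0.35.

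Lif (ENSMUSG00000034394.14, chr11:4257557-4272514, plus strand), leukemia inhibitory factor, was measured at 12.04, 10.3 and 10.1 CPM in control, at 33.1, 40.2 and 31.3 in hypoxia and at 45.8, 42.5 and 46.9 in hypoxia + rSRGN. Its 3 groups followed each other without overlap. The rise in hypoxia was 3.23-fold (log2 fold change 1.69, SE 0.11, adjusted p = 9.8e-12). Between the hypoxic groups the log2 fold change was 0.37 (SE 0.10, interval 0.15 to 0.58, adjusted p = 0.0184), below the 1.5-fold limit, so it was not called.

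Il11 (ENSMUSG00000004371.15, chr7:4772373-4782859, minus strand), a cytokine that acts on fibroblasts, had the fewest counts after Cxcl2. It was at 0.944, 0.858 and 0.773 CPM in control, at 1.72, 3.70 and 3.01 in hypoxia and at 2.98, 3.13 and 2.85 in hypoxia + rSRGN. The hypoxia libraries spread 2.15-fold and enclosed all 3 rSRGN libraries, but lay above control. Il11 rose 3.24-fold in hypoxia (log2 fold change 1.70, SE 0.32, adjusted p = 7.53e-05), and its difference with rSRGN was 0.09 on the log2 scale (interval -0.50 to 0.69). Of its 50-base stretches, 3.13% also occur in transcripts of other genes, so that a small part of its fragments could be ambiguous.

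Csf1 (ENSMUSG00000014599.10, chr3:107741048-107760469, minus strand), macrophage colony-stimulating factor, had the highest counts of the group. It was at 270.2, 300.4 and 266 CPM in control, at 535, 509.8 and 536 in hypoxia and at 572, 549.5 and 591 in hypoxia + rSRGN. The groups did not overlap, although the gap between the hypoxic groups was narrow. The rise in hypoxia was 1.89-fold (log2 fold change 0.92, SE 0.07, adjusted p = 1.27e-10). Scaled to fibroblast markers, whose mean sum was 12762 CPM in control and 23929 in hypoxia, the log2 fold change was 0.01 (adjusted p = 0.944) and was not called. With rSRGN the log2 fold change was 0.11 (interval -0.03 to 0.26, adjusted p = 0.296).

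Ccl2 (ENSMUSG00000035385.5, chr11:82035571-82037453, plus strand), the main monocyte attractant, was at 38.1, 40.6 and 47.2 CPM in control, at 117, 105 and 105 in hypoxia and at 167, 136 and 125 in hypoxia + rSRGN. The order of the 3 groups held in all libraries. It rose 2.59-fold in hypoxia (log2 fold change 1.38, SE 0.10, adjusted p = 4.02e-11). On the fibroblast marker scale its log2 fold change was 0.47 (adjusted p = 0.00047), below the fold limit. With rSRGN the log2 fold change was 0.39 (SE 0.10, interval 0.19 to 0.59, adjusted p = 0.0082), below the fold limit. The rSRGN spread was set by replicate 1, the highest library, and without it the value was 0.26 with an adjusted p of 0.0904.

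Ccl7 (ENSMUSG00000035373.2, chr11:82045712-82047525, plus strand) starts 8258 bases after the end of Ccl2 and encodes a monocyte attractant that shares its receptor CCR2. Its levels were 7.95, 9.12 and 12.8 CPM in control, 37.8, 32.1 and 34.1 in hypoxia and 47.6, 45.6 and 43.6 in hypoxia + rSRGN. As for Ccl2, the groups were ordered without overlap. Ccl7 rose 3.49-fold in hypoxia (log2 fold change 1.80, SE 0.13, adjusted p = 3.76e-11), and its log2 fold change with rSRGN was 0.40 (SE 0.12, interval 0.15 to 0.64, adjusted p = 0.0263), below the fold limit. Counts of Ccl2 per count of Ccl7 were 3.70 to 4.80 in control, 3.09 to 3.25 in hypoxia and 2.86 to 3.50 in hypoxia + rSRGN.

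Cxcl1 (ENSMUSG00000029380.11, chr5:90891241-90893115, plus strand), a neutrophil attractant, was at 1.62, 1.76 and 1.98 CPM in control, at 6.88, 11.96 and 5.27 in hypoxia and at 11.5, 9.92 and 10.1 in hypoxia + rSRGN. Replicate 2 of hypoxia stood above all 3 rSRGN libraries, and the other two hypoxia libraries stood below them. Cxcl1 rose 4.49-fold in hypoxia (log2 fold change 2.17, SE 0.25, adjusted p = 8.04e-08). With rSRGN the log2 fold change was 0.39 (SE 0.21, interval -0.05 to 0.82, adjusted p = 0.233). Without hypoxia replicate 2 it was 0.79 with an adjusted p of 0.0034, which would be called, and over all alternatives the adjusted p ran from 0.0034 to 0.693.

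Cxcl2 (ENSMUSG00000058427.10, chr5:90903871-90905938, plus strand), the neighbouring neutrophil attractant 10755 bases beyond Cxcl1, was near the lower limit of detection, with 25 counts over the 3 control libraries, 33 over hypoxia and 38 over hypoxia + rSRGN. Its libraries gave 0.539, 0.271 and 0.338 CPM in control, 0.483, 1.10 and 0.290 in hypoxia and 1.07, 0.530 and 0.475 in hypoxia + rSRGN. The groups overlapped throughout. The log2 fold change in hypoxia was 0.69 with a wide interval from -0.52 to 1.90 (adjusted p = 0.296). Without hypoxia replicate 2 it was 0.017, and without hypoxia replicate 3 it was 1.02. With rSRGN the log2 fold change was 0.13 (interval -1.02 to 1.28). Cxcl2 shares 5.84% of its 50-base stretches with its paralog Cxcl3, so fragments from the shared stretches could be assigned to either gene or left out.

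Cxcl12 (ENSMUSG00000061353.11, chr6:117168535-117181367, plus strand), the constitutive chemokine that retains progenitor cells, was already abundant in control at 201, 195 and 197 CPM. It was at 251, 242 and 276 in hypoxia and at 259, 259 and 265 in hypoxia + rSRGN. Control lay below both hypoxic groups, which overlapped. The log2 fold change in hypoxia was 0.37 (SE 0.07, adjusted p = 5.26e-05), a 1.30-fold difference below the limit and not called, and with rSRGN it was 0.02 (interval -0.12 to 0.17).

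Ptgs2 (ENSMUSG00000032487.8, chr1:150100031-150108227, plus strand) went from the fifth level of the 10 per kilobase of exon in control to the third with rSRGN. It was at 25.1, 18.5 and 17.2 CPM in control, at 131, 249.7 and 126 in hypoxia and at 349, 379 and 319.7 in hypoxia + rSRGN. Hypoxia replicate 2 had 1.99 times the lowest hypoxia level, yet the 3 groups did not overlap. Ptgs2 rose 8.31-fold in hypoxia (log2 fold change 3.05, SE 0.19, adjusted p = 3.74e-12). It rose a further 2.07-fold with rSRGN (log2 fold change 1.05, SE 0.17, interval 0.69 to 1.41, adjusted p = 0.00036). Leaving out any 1 library gave log2 fold changes with rSRGN of 0.88 to 1.45, the highest without hypoxia replicate 2, and Ptgs2 was called each time.

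**Figure D3:**
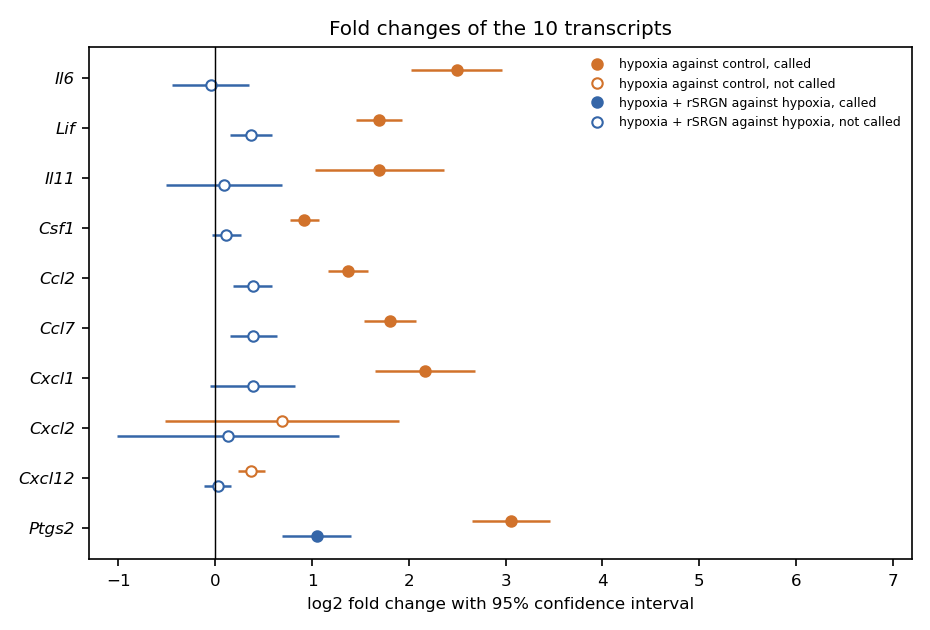
Log2 fold changes of the 10 transcripts with 95% confidence intervals, for hypoxia against control and for hypoxia + rSRGN against hypoxia. Filled points are called, and Ptgs2 is the only filled point of the rSRGN comparison, at 1.05.

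With rSRGN, 5 of the 10 transcripts (Lif, Csf1, Ccl2, Ccl7 and Ptgs2) had all 3 libraries above all 3 hypoxia libraries. Of all genes tested, 16.5% had their libraries placed this way, and 15.5% had all 3 rSRGN libraries below hypoxia (2.27% were called higher). Only Ptgs2 passed the fold limit, and Lif, Ccl2 and Ccl7 passed the adjusted p alone. Without the fold limit, 10.5% of all genes were higher by adjusted p and 6.11% lower. For Lif, Ccl2 and Ccl7 the adjusted p depended on single libraries and on scaling, at 0.0014 to 0.238 for Lif, 4.49e-05 to 0.102 for Ccl2 and 0.00214 to 0.138 for Ccl7 over the alternatives. The low ends of Ccl2 and Ccl7 came from the filter of at least 1 count. The next lowest values, both from DESeq2, were 0.0011 and 0.00705. The differences of Il6, Il11, Cxcl2 and Cxcl12 were small against their intervals. Hypoxia replicate 2 was the highest hypoxia library for 6 of the 10 (Il6, Lif, Il11, Cxcl1, Cxcl2 and Ptgs2) and the lowest for Csf1, Ccl2, Ccl7 and Cxcl12.

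Against control, 8 of the 10 were higher in hypoxia + rSRGN and 0 were lower (24.1% of all genes were called higher and 24.7% lower). Scaled to fibroblast markers, 7 were called higher and 1, Cxcl12, lower (5.70% and 65.4% of all genes), and Csf1 went from a log2 fold change of 1.03 to 0.01 (adjusted p = 0.913) and was not called. This comparison shares its control libraries with the one of hypoxia. The log2 fold change of Ptgs2 was 4.11 (SE 0.20, 17.2-fold), that of Cxcl1 2.55 (SE 0.25), of Il6 2.45 (SE 0.23), of Ccl7 2.20 (SE 0.13) and of Lif 2.06 (SE 0.11). Cxcl2 at 0.82 and Cxcl12 at 0.40 were again not called.

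Levels were compared between genes as CPM per kilobase of exon. In control the order was Csf1 at 52.8 ± 3.58 (SD, n = 3), Ccl2 at 36.9 ± 4.10, Cxcl12 at 24.2 ± 0.351, Ccl7 at 12.4 ± 3.13, Ptgs2 at 4.42 ± 0.921, Lif at 2.48 ± 0.249, Cxcl1 at 0.953 ± 0.0976, Il6 at 0.509 ± 0.158, Il11 at 0.412 ± 0.0410 and Cxcl2 at 0.185 ± 0.0675. Only the neighbours Il6 and Il11 had overlapping ranges there. In hypoxia Csf1 at 99.8 ± 2.85 and Ccl2 at 95.6 ± 6.03 could not be separated, nor could neighbours among Ccl7 at 43.3 ± 3.58, Ptgs2 at 36.8 ± 15.3 and Cxcl12 at 31.4 ± 2.14, nor Cxcl1 at 4.29 ± 1.86 and Il6 at 2.89 ± 0.159. With rSRGN the highest levels were Ccl2 at 125 ± 19.2 and Csf1 at 108 ± 3.94, whose ranges overlapped, followed by Ptgs2 at 76.3 ± 6.46, apart from Ccl7 at 56.9 ± 2.51. Ptgs2 thus stood below Cxcl12 and Ccl7 in control and above both with rSRGN.

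Of the receptors that bind these ligands, 7 of 13 were tested, and in hypoxia 2 were higher and 3 lower (median log2 fold change -0.49). Il11ra1, the IL-11 receptor, rose by a log2 fold change of 0.79 (SE 0.08) and Il6ra, the IL-6 receptor, by 0.78 (SE 0.14). Lifr, the LIF receptor, fell by 1.12 on the log2 scale (SE 0.12), from 56.9 to 58.2 CPM in control to 21.8 to 32.9 in hypoxia. Cxcr4, the CXCL12 receptor, had a log2 fold change of -1.53 (SE 0.34) and Csf1r, the CSF1 receptor, one of -0.98 (SE 0.18). Il6st, which encodes gp130, was at 306 to 338 CPM in control, 197 to 247 in hypoxia and 299 to 337 in hypoxia + rSRGN. The hypoxia libraries of Il6st lay below both other groups, with log2 fold changes of -0.49 against control and 0.50 with rSRGN (SE 0.08 each, adjusted p = 1.59e-05 and 0.000416) that missed the fold limit. No receptor was called with rSRGN. Ccr2, the receptor of CCL2 and CCL7, had 0 counts in control and hypoxia and 1 in hypoxia + rSRGN, and Cxcr1 had 0 in all groups. The other CC chemokine receptors listed also had few counts. Ccr1 had 26, 6 and 1 in control, hypoxia and hypoxia + rSRGN, and Ccr3 had 4, 14 and 11. Cxcr2 had 1, 11 and 24 counts in control, hypoxia and hypoxia + rSRGN.

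Among other ligands of the gp130 and colony-stimulating families, 6 of 9 were tested and 5 were higher in hypoxia, with a median log2 fold change of 1.70, while 0 were lower. Cntf, ciliary neurotrophic factor, had a log2 fold change of 2.69 (SE 0.60) on few counts, 11 over the control libraries and 60 over hypoxia. Csf3, granulocyte colony-stimulating factor, changed by 1.70 (SE 0.47, 28 and 75 counts). None was called with rSRGN. Osm had 2 to 3 counts in each group and Csf2 0 to 3.

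Of 31 other chemokines, 13 were tested, and 8 were higher and 2 lower in hypoxia (median 0.80). Ccl20, the ligand of CCR6, was at 0.542 to 0.899 CPM in control, 3.24 to 5.10 in hypoxia and 7.45 to 10.6 in hypoxia + rSRGN. Its groups were ordered like those of Ptgs2, without overlap. Its log2 fold change was 2.57 in hypoxia (SE 0.28, adjusted p = 3.36e-08) and a further 1.10 with rSRGN (SE 0.21, adjusted p = 0.00144), the only chemokine of the list called there. Cxcl10, an interferon-inducible attractant of T cells, rose by 1.78 in hypoxia (SE 0.37). Ccl27a had a log2 fold change of -0.92 (SE 0.20).

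The classic upstream cytokines were nearly silent. Il1b had 1 count over the 3 control libraries and 0 in both hypoxic groups, which allows up to 3 counts per group, and Tnf had 25, 8 and 4 counts in control, hypoxia and hypoxia + rSRGN. Of the 17 other inflammatory cytokines listed, 8 were tested, with 3 higher and 4 lower in hypoxia (median -0.08) and 0 called with rSRGN. Il16, an attractant of CD4+ cells, rose by a log2 fold change of 1.52 (SE 0.14) and Il18 by 1.15 (SE 0.27). Il1rn, the interleukin-1 receptor antagonist, had a log2 fold change of -1.90 (SE 0.49), and Il23a one of -2.12 (SE 0.54).

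The genes around cyclooxygenase-2 did not move as a group. Of 23 genes for prostanoid synthesis, transport and receptors, 19 were tested, and in hypoxia 7 were higher and 6 lower (median 0.18). Ptger4, the prostaglandin E2 receptor EP4, rose from 13.2 to 15.5 CPM in control to 43.3 to 53.1 in hypoxia (log2 fold change 1.72, SE 0.10). Hpgd, which inactivates prostaglandins, rose by 2.33 (SE 0.14). Ptgds, a prostaglandin D2 synthase, was at 42.3 to 46.4 CPM in control and 3.65 to 5.16 in hypoxia (log2 fold change -3.32, SE 0.13), and Ptgfr, the receptor of prostaglandin F2alpha, had a log2 fold change of -2.87 (SE 0.43). With rSRGN only Ptgds was called, at 0.82 (SE 0.15, adjusted p = 0.000856), and it remained far below control at 6.55 to 8.70 CPM. Ptgs1, the constitutive cyclooxygenase, was at 56.6 to 68.1 CPM in control, 172 to 189 in hypoxia and 188 to 198 in hypoxia + rSRGN. Counts of Ptgs2 per count of Ptgs1 were 0.272 to 0.381 in control, 0.665 to 1.45 in hypoxia and 1.70 to 1.92 in hypoxia + rSRGN, without overlap.

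**Figure D4:**
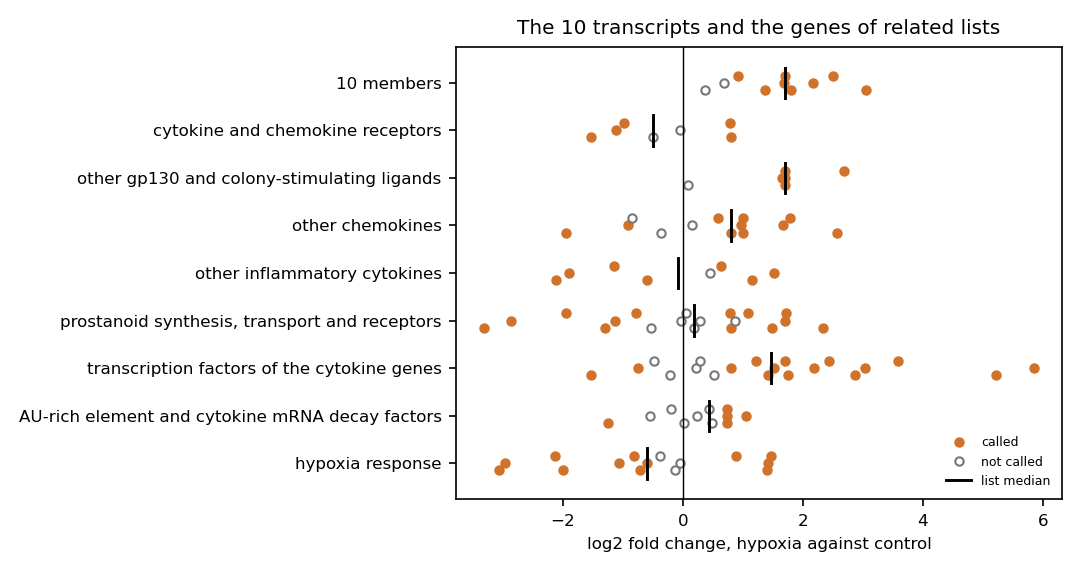
Log2 fold changes in hypoxia against control for the 10 transcripts and for the tested genes of 8 related lists, with 1 point per gene (filled when called) and a line at each list median. The medians were 1.69 for the 10 transcripts, 1.70 for other gp130 and colony-stimulating ligands, 1.47 for the transcription factors and -0.59 for the hypoxia response.

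Of 20 transcription factors and feedback inhibitors of these genes, all were tested, and in hypoxia 13 were higher and 2 lower (median 1.47). Fosb, an AP-1 subunit, rose by a log2 fold change of 5.86 (SE 0.32) and Atf3, a stress-induced factor of the ATF family, by 5.21 (SE 0.11). Rel, an NF-kappaB subunit, had a log2 fold change of -0.75 (SE 0.12), and Hif1a, the oxygen-regulated factor, one of -1.53 (SE 0.09). With rSRGN 0 of the 20 were called.

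Among 11 proteins that bind AU-rich or stem-loop elements of cytokine mRNAs, 4 were higher and 1 lower in hypoxia (median 0.44). Zfp36, tristetraprolin, which promotes decay of such mRNAs, rose by 1.05 (SE 0.13) and Hnrnpd, an AU-rich element binding protein, by 0.74 (SE 0.10), while Tia1, a translational repressor, had a log2 fold change of -1.25 (SE 0.10). Rc3h1, or roquin-1, which degrades cytokine mRNAs, was the 1 gene called with rSRGN, at 0.60 (SE 0.08, adjusted p = 0.000117). The 15 genes of the hypoxia response were mixed, with 4 higher and 8 lower (median -0.59). Ndrg1 rose by 1.48 (SE 0.11) and P4ha1, a collagen prolyl hydroxylase, by 1.41 (SE 0.09), whereas Pdk1, which restrains pyruvate oxidation, had a log2 fold change of -3.06 (SE 0.12) and Ankrd37 one of -2.96 (SE 0.60).

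The make-up of the RNA differed strongly between the groups. All 12 cardiomyocyte markers were present in every group, but their summed level went from 44589 to 54653 CPM in control to 3942 to 6122 in hypoxia and 7794 to 8370 in hypoxia + rSRGN, with 12 of 12 called lower in hypoxia and 10 of 12 higher with rSRGN. The 11 fibroblast markers summed to 11549 to 13596 CPM in control, 22515 to 25272 in hypoxia and 25467 to 26488 in hypoxia + rSRGN, and 8 of 11 were called higher in hypoxia and 0 lower. Of the 6 mesothelial markers 5 were higher, with sums of 239 to 275 CPM in control, 854 to 933 in hypoxia and 811 to 889 in hypoxia + rSRGN. In these bulk samples, fewer cells of a type and less of its RNA per cell cannot be told apart. The 10 transcripts were therefore also measured against the fibroblast markers, by scaling the libraries to the sum of these, while the part of the other cell types in their changes was not tested.

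On that scale, where the median of all genes in hypoxia against control was -0.85, 6 of the 10 transcripts were called higher. Ptgs2 had a log2 fold change of 2.15, Il6 of 1.59, Cxcl1 of 1.28, Ccl7 of 0.90, Il11 of 0.80 and Lif of 0.78. Csf1 was at 0.01 and Ccl2 at 0.47, and Cxcl2 at -0.21 and Cxcl12 at -0.54 turned in sign. Csf1 counts amounted to 1.95% to 2.34% of the fibroblast marker counts in control, 2.12% to 2.26% in hypoxia and 2.08% to 2.32% in hypoxia + rSRGN, with overlap of all 3 groups. Ptgs2 counts amounted to 0.127% to 0.217%, 0.517% to 1.11% and 1.25% to 1.43% of them, without overlap. With rSRGN, Ptgs2 had a log2 fold change of 0.92 on this scale (adjusted p = 0.00366) and was the 1 transcript called. Among all genes, 1.19% were called higher and 1.89% lower with rSRGN on this scale.

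**Figure D5:**
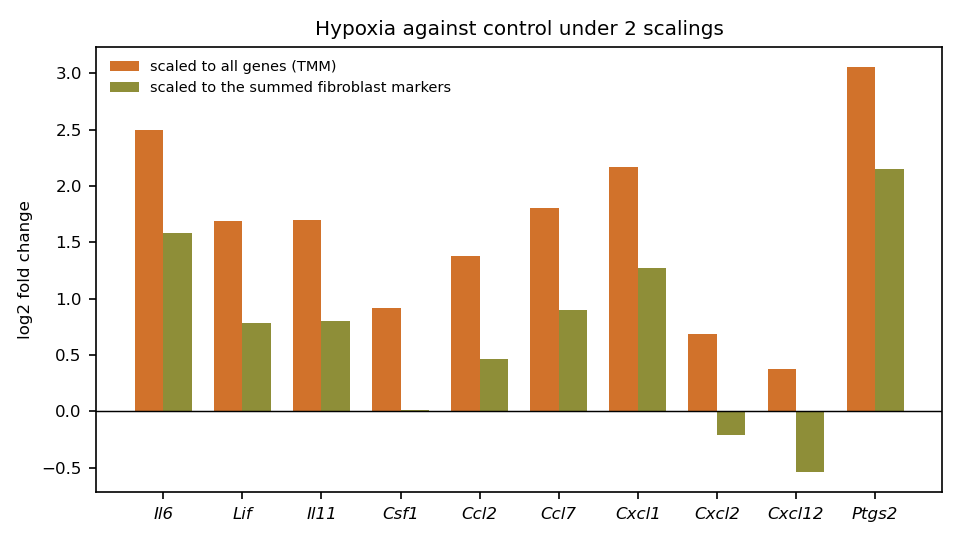
Log2 fold changes of the 10 transcripts in hypoxia against control with libraries scaled to all genes (TMM) and to the summed counts of 11 fibroblast markers. Csf1 goes from 0.92 to 0.01 and Cxcl12 from 0.37 to -0.54, while Ptgs2 goes from 3.05 to 2.15.

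Most macrophage markers were lower in hypoxia, while the chemokines Ccl2, Ccl7 and Cxcl1 were called higher and Cxcl2 and Cxcl12 were not called. Of 13 macrophage markers 12 were tested, with 10 lower and 1 (Cx3cr1) higher in hypoxia, and their sum was 235 to 252 CPM in control, 109 to 164 in hypoxia and 137 to 157 in hypoxia + rSRGN. Cx3cr1, the fractalkine receptor, made up most of the sum in both hypoxic groups, with a mean of 0.285 CPM in control, 114 in hypoxia and 116 in hypoxia + rSRGN. The other 12 markers summed to 235 to 252 CPM in control, 25.6 to 29.0 in hypoxia and 30.3 to 35.7 in hypoxia + rSRGN. The 10 neutrophil markers summed to 0.226 to 0.539 CPM in control, 0.173 to 0.753 in hypoxia and 0.179 to 1.35 in hypoxia + rSRGN, none passed the filter, and Ly6g, Mpo and Retnlg had 0 counts in every group. Of 9 endothelial markers 5 were lower and 0 higher, with sums of 117 to 149.8 CPM in control, 113 to 131 in hypoxia and 124 to 149 in hypoxia + rSRGN. Of 7 smooth muscle and pericyte markers 2 were higher and 1 lower, with sums of 1715 to 2024, 2400.1 to 2713 and 2274 to 2398 CPM.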

How the data were processed

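The authors deposited 1 table of fragment counts per gene, whole numbers without normalization, for 9 libraries of mouse cultures. Per its header, featureCounts 2.0.1 counted read pairs on exons of GENCODE release M25 without a strand option, and the submitters' processing notes name HISAT2 and mm10. The study's paper does not describe these cultures. None of the 10 genes shares exonic bases with another annotated gene. All 9 columns of counts were used (0 unused). Samples were grouped by their titles.

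The fit used edgeR 4.0.16 (R 4.3.3) with filterByExpr, TMM scaling, 1 mean for each group, all 9 libraries together, and its quasi-likelihood test with Benjamini-Hochberg adjustment over the 16762 genes tested. Calls required 1.5-fold or more and an adjusted p under 0.05. The fit was first tested on simulated data. Intervals are 95% confidence intervals of the fit. Where a group had no count, 3 counts over the group were taken as the limit, which covers counting error only. CPM and CPM per kilobase were computed from the counts and TMM factors.

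The 10 genes, and the lists of related genes and markers, were chosen with earlier results of these data known. Besides the 10, the text names from each list of related genes the 2 called genes that rose most and the 2 that fell most, in hypoxia and with rSRGN, at a mean of at least 0.5 CPM, and the gene nearest to each of the 10 by root mean square distance of centred log2 CPM (prior count 2), of which that of Csf1 is not reported here. Il6st, Csf1r, Ccr1, Ccr2, Ccr3, Cxcr1, Cxcr2, Osm, Csf2, Il1b, Tnf, Ptgs1 and the marker genes named singly were added after their values were seen. The main fit did not pair libraries by replicate number, and the labels do not say whether same-numbered cultures belong together. Deviations from group means of same-numbered libraries correlated at -0.0374 to 0.0215. Libraries of a group differed by more than sampling noise (chi-square per degree of freedom 3.63 to 13.1). Alternatives were DESeq2 1.42.0, 2 other scalings, 2 other filters, 2 other thresholds, fits of the compared groups only, a replicate block and the omission of each library. Scaling to fibroblast markers was added after the data were seen. Motifs were searched in the RefSeq promoter table.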

Additional observations from a re-analysis of the deposited data

How the results depend on the processing

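The number of the 10 transcripts called was the same, or within 1.5 times, in 111 of 114 recalculations. With the replicate block it was 8 higher and 0 lower for hypoxia, as without the block (26% and 25% of all genes). It also stayed at 1 and 0 for rSRGN against hypoxia (2.27% and 0.68%). For rSRGN against control it stayed at 8 and 0 (23.8% and 24.5%). The labels do not say whether same-numbered libraries belong together. Without a fold limit, 4 transcripts were called higher with rSRGN against hypoxia, as were 10.5% of all genes against 2.27% with the limit. Omission of 1 library at a time gave 1 to 2 (2 without hypoxia replicate 2, which added Cxcl1). The share of all genes called higher also moved with the library left out, from 1.15% without hypoxia replicate 3 to 2.87% without hypoxia replicate 1, and was 2.84% without hypoxia replicate 2. With scaling to fibroblast markers, 1 transcript, Cxcl12, was called lower with rSRGN against control, as were 65.4% of all genes.

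Of the recalculated log2 fold changes, 11 turned in sign, none of a change called in the report's fit. With scaling to fibroblast markers these were Cxcl2 (-0.21) and Cxcl12 (-0.54) in hypoxia, Il11 (-0.033) and Cxcl12 (-0.087) for rSRGN against hypoxia, and Cxcl2 (-0.20) and Cxcl12 (-0.63) for rSRGN against control. The adjusted p of Cxcl12 was under 0.05 on both sides of the change in sign in hypoxia (5.26e-05 at 0.37 and 2.42e-05 at -0.54), and the value of -0.63 (adjusted p = 2.19e-06) passed the fold limit. Omission of 1 library gave, for rSRGN against hypoxia, -0.17 to 0.34 for Il11, -0.30 to 0.81 for Cxcl2 and -0.013 to 0.082 for Cxcl12. The log2 fold change of Ptgs2 for rSRGN against hypoxia stayed at 0.88 to 1.45 over all alternatives. Its adjusted p was 1.56e-09 (without hypoxia replicate 2) to 0.00571 (DESeq2), apart from the filter that kept every gene with at least 1 count. That filter gave 4.08e-39 at a log2 fold change of 1.07. It also gave Il6 in hypoxia an adjusted p of 1.24e-24, against 1.64e-09 in the report's fit, at 2.44 and 2.49. Its p-values are therefore not comparable with those of the other fits. Scaling to fibroblast markers moved the share of higher among all called genes from 51.27% to 11.1% in hypoxia, from 72.57% to 38.68% for rSRGN against hypoxia and from 49.32% to 8.01% for rSRGN against control. That scaling shifted the log2 fold changes of a comparison by close to a constant, for the 10 transcripts by -0.91 to -0.89 in hypoxia, -0.13 to -0.11 for rSRGN against hypoxia and -1.04 to -1.01 for rSRGN against control (medians over all genes -0.91, -0.11 and -1.02). Library size alone moved the median of all genes in hypoxia to 0.12. Depth limits Cxcl2, with 5 to 19 counts a library, and Il11, with 16 to 65.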

Other observations

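For 9 of the 10 transcripts (all but Csf1), the gene with the most similar course over the 9 libraries was found by the root mean square distance between log2 CPM values centred on each gene's mean. Relb, an NF-kappaB subunit, was nearest to Ccl2 (distance 0.11 on the log2 scale), and Tnfaip3, the NF-kappaB inhibitor A20, was nearest to Ccl7 (0.13). Errfi1, a feedback inhibitor of the EGF receptor, was nearest to Ptgs2 (0.21), with log2 fold changes of 2.83 in hypoxia and 0.85 with rSRGN. Ifrd1 was nearest to Lif (0.08), Crabp1 to Il6 (0.14), Tspan15 to Il11 (0.18), Adam4 to Cxcl1 (0.20) and Gm46432 to Cxcl2 (0.23). Eif2b2, a subunit of translation initiation factor 2B, was nearest to Cxcl12 (0.03). These distances are descriptions over 9 libraries of 3 groups, picked as the smallest of all genes tested.

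Cx3cr1, the fractalkine receptor and the 1 macrophage marker called higher, had a mean of 0.285 CPM in control, 114 in hypoxia and 116 in hypoxia + rSRGN. The macrophage markers Adgre1, at means of 4.25, 0.116 and 0.0711 CPM, and C1qa, at 2.75, 0.0193 and 0.0696 CPM, were near 0 in both hypoxic groups.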
